A study of Mus musculus with 14 samples.

Results

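The comparison rests on 7 of the 14 RNA-seq libraries of the series, 4 of old hematopoietic stem cells (oHSCs) that carried guide RNAs against Clu (sgClu, Clu KO) and 3 of oHSCs that carried a control guide (sgCtrl). The libraries were chosen by these labels, and all 583 genes for which values of both groups were at hand were used. Donors were Cas9 knock-in mice aged 24 months, male or female, so that Cas9 was present in both groups. Sorted HSCs were infected with a lentivirus that carried guides and the mCherry reporter and were transplanted into irradiated CD45.1 mice aged 2 months. After 4 months the marrow of the recipients was collected, and HSCs of donor origin were sorted for RNA-seq. A mix of 3 plasmids, each with another guide, was packaged per gene, so the sgClu cells are no single edited clone, and the share of edited alleles was not analysed here. The study states in general terms that its sequencing used biological replicates, but the labels do not tie the libraries of a group to separate animals, so p-values measure the spread between these libraries.

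HSCs maintain all blood lineages and are mostly quiescent, and with age they shift towards myeloid output. Clu encodes clusterin, a secreted and intracellular chaperone glycoprotein. Many of the genes described here are early response genes, a set that includes Fos, Jun, Egr1 and Nr4a1 and that cells transcribe soon after a growth factor, inflammatory or stress signal, without first making new protein. The same genes are also known to rise while cells are isolated from tissue.

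The guides are shown because they define the groups. Clu lies on the plus strand of chromosome 14 from 65968483 to 65981547 (mm10). The sequence next to each site that Cas9 needs for cutting, the PAM, is in capitals and is not part of the guide.
Clu_sgRNA_1: gagattcagaacgccgtccaGGG
Clu_sgRNA_2: agtgtgtaacgagaccatgaTGG
Clu_sgRNA_3: aacatgttgtggaagctcggAGG
All 3 guides match coding sequence. Guide 1 matches exon 3 of 9 (chr14:65973360-65973379, sense), guide 2 matches exon 4 (chr14:65974896-65974915, sense) and guide 3 matches exon 5 (chr14:65975875-65975894, antisense). Clu is not among the 583 genes, so the labels were not checked against the targeted gene. The sources list 3 non-targeting guides without saying which was used in the sgCtrl cells.

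Levels are read as FPKM, that is, fragments relative to transcript length and to the number of fragments mapped. No header states the unit, which may instead be TPM. All 583 genes are among those the study lists as changed between these same libraries. Counts of lower or higher genes, and the p-values and adjusted p-values given below, therefore describe a selected set and are not independent evidence of a change. The sum of all 583 values was 10841 to 12502 FPKM in sgClu and 17005 to 18573 FPKM in sgCtrl libraries. These sums are not sequencing depths, which are unknown. The correlation of log2(FPKM + 1) across these genes lay between 0.969 and 0.978 for sgClu pairs, between 0.963 and 0.978 for sgCtrl pairs and between 0.907 and 0.941 for pairs across the groups, as a description of libraries that share the gene selection.

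Genes were called lower or higher in sgClu with limma on log2(FPKM + 1), two-sided, where the unadjusted p was under 0.05 and the log2 fold change exceeded 0.5 in size, the limits the study names. The added 1 makes the change of weakly expressed genes look smaller than it is. By these limits 292 genes were lower (50.1%) and 90 were higher (15.4%). The groups did not overlap in 306 genes with sgClu below (52.5%) and in 83 genes with sgClu above (14.2%). The median log2 fold change over the table was -0.52, so a list with a median near that value did not stand apart from the rest of the table. Lower genes made up 76.4% of called genes as deposited, but 31.2% once libraries were scaled by median of ratios on these same genes, which moved the median to -0.087 and left 59 genes lower and 130 higher. Which baseline applies cannot be told from a table of selected genes. Of the 292 lower genes 262 kept a negative sign under all 3 scalings tried, and all 90 higher genes kept a positive one. The scalings moved fold changes upward, so the higher genes were bound to stay positive, and their count is no measure of stability.

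**Figure D1:**
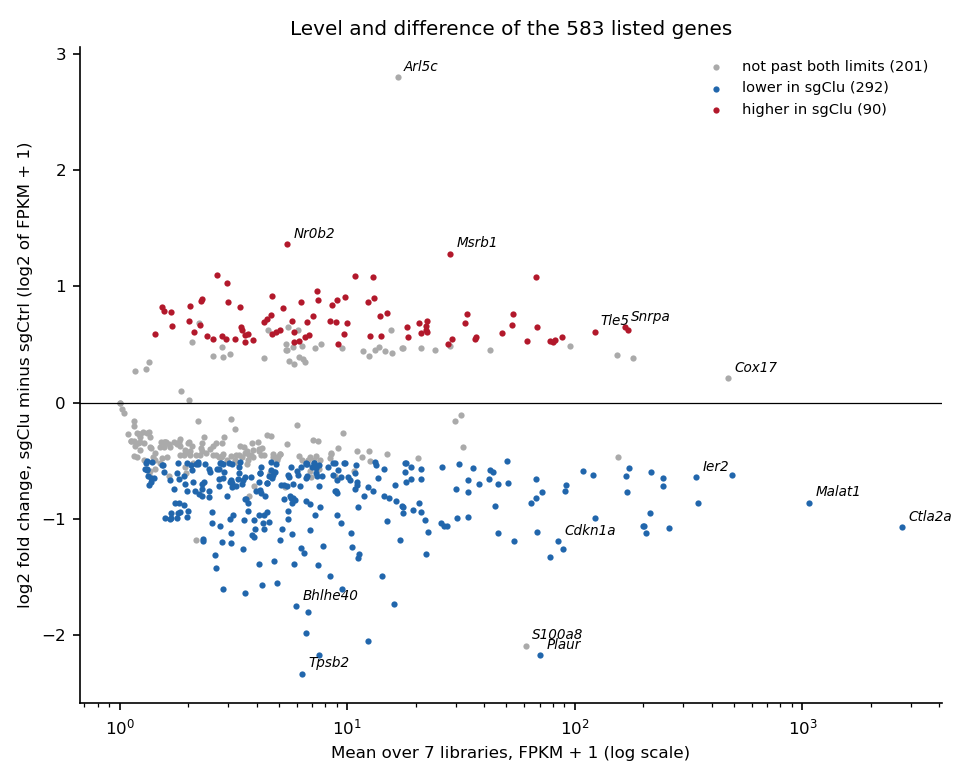
Mean level over the 7 libraries (x axis, FPKM + 1, log scale) against the log2 fold change of sgClu over sgCtrl (y axis) for the 583 genes, coloured by whether a gene was lower, higher or not past both limits. Lower genes (292) outnumber higher ones (90) at every level, and Arl5c, at 2.80, is highest in log2 fold change without being past the limits.

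The share of lower genes differed with the level. Of the 101 genes with a mean under 1 FPKM, 34.7% were lower and 4.95% higher. Of the 70 genes with a mean over 30 FPKM, 62.9% were lower and 24.3% higher. Lower genes had a median log2 fold change of -0.73, with quartiles of -0.99 and -0.61, and 69 of them changed by more than 1. The 90 higher genes had a median of 0.66, with quartiles of 0.57 and 0.80, and 7 changed by more than 1. By annotated class, 248 of 502 protein-coding genes were lower and 74 higher. Of 6 processed pseudogenes, 4 were higher, and these share much of their sequence with other genes, so that their values are uncertain.

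The gene with the highest level was Ctla2a, which encodes an inhibitor of cathepsin-type proteases. It measured 1653, 1745, 2533 and 1617 FPKM in the sgClu libraries and 3907, 3933 and 3856 FPKM in the sgCtrl libraries. Every sgClu library was below every sgCtrl library, and sgClu replicate 3 stood above the other 3. On the log2 scale the change was -1.07 (limma adjusted p = 0.00398, SE 0.18). Ctla2a shares 30.1% of its 50-base words with transcripts of other genes. Ctla2b of the same family, lower at -1.11, shares 74.0%. Next in level were Malat1, a nuclear noncoding RNA, at a mean of 794 FPKM in sgClu and 1433 FPKM in sgCtrl (-0.86), and mt-Rnr2, the large mitochondrial ribosomal RNA, at 396 and 613 FPKM (-0.62). The groups of mt-Rnr2 overlapped, its change was -0.46 and not past the limits without sgCtrl replicate 3, and after median-of-ratios scaling it was 0.0075. Cox17, which encodes a copper chaperone of cytochrome c oxidase, and Ccl4, which encodes a chemokine, completed the highest 5. Cox17 was at a mean of 499.7 FPKM in sgClu and 431 FPKM in sgCtrl, with overlapping groups. Ccl4 fell from 465 to 259.7 FPKM.

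Among regulators of transcription, the AP-1 and related bZIP factors, which bind DNA as dimers, were represented by 8 of 18 listed genes, and 6 of the 8 were lower. Their median log2 fold change was -0.97, against -0.52 over the table, and after the 3 scalings it lay between -0.38 and -0.34. Fos measured 122, 154, 149.8 and 183 FPKM in sgClu and 332, 288 and 261 FPKM in sgCtrl libraries. The groups were well apart, with a change of -0.95 on the log2 scale (SE 0.17, limma adjusted p = 0.00446). Atf3, a stress-induced factor, had a wider control group, at 31.7, 17.8 and 12.1 FPKM, against 7.07 to 11.2 FPKM in sgClu. Its change was -1.02 (SE 0.31) and ranged from -1.33 to -0.67 with each library left out in turn. Fosl2 changed most of the list, at -1.80, and ranged from -1.91 to -1.69 with each library left out in turn. Jun was at -0.69, and Mafk (-0.73, SE 0.33) and Bach1 (-0.35, SE 0.13, but 0.0094 after median-of-ratios scaling) were not past the limits. Other early response regulators held the most members, 29 of 36 listed genes, of which 27 were lower. Their median was -0.84, and after median-of-ratios scaling 23 of the 29 were still negative. Nr4a1, a nuclear receptor, measured 39.2, 47.2, 46.1 and 48.2 FPKM in sgClu and 159.6, 92.1 and 103 FPKM in sgCtrl libraries. The sgClu libraries lay close together, while sgCtrl replicate 1 was above the other 2 controls (log2 fold change -1.33, SE 0.20, limma adjusted p = 0.00305). Its relatives Nr4a2 and Nr4a3 were at -1.18 and -1.42. Id3 and Id1, which encode inhibitors of basic helix-loop-helix factors, were at -1.30 and -1.12, and Klf4, a zinc finger factor, was at -1.18. Btg1 (-0.48, but 0.077 to 0.12 after scaling) and Tob1 (-0.61), antiproliferative factors of the BTG/TOB family, were not past the limits.

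The list of genes known to rise during tissue dissociation overlaps those lists and moved with them. Of its 34 genes 26 were in the table and 25 were lower, with a median of -0.84. Their summed level was 1429 to 1934 FPKM in sgClu and 2582 to 3649 FPKM in sgCtrl libraries, so the groups did not overlap, and sgCtrl replicate 1 was the highest. The part of cell handling in these differences was not tested.

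**Figure D2:**
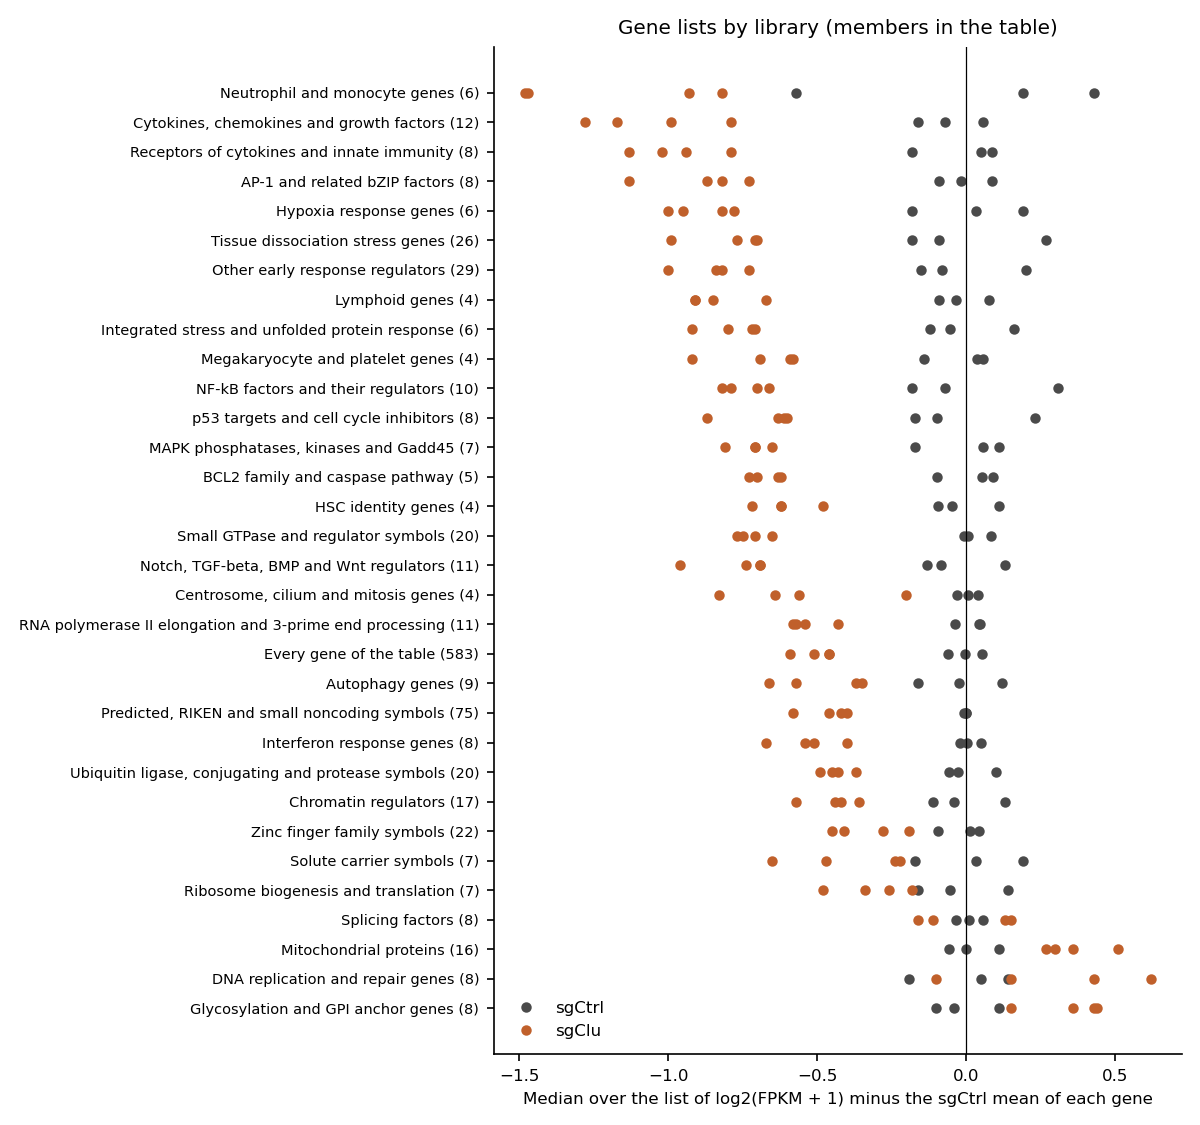
For each gene list with at least 4 genes in the table (number in parentheses), the median over its genes of log2(FPKM + 1) minus each gene's sgCtrl mean (x axis), as 1 point per library, with 4 sgClu and 3 sgCtrl libraries. The row for every gene of the table lies between -0.59 and -0.46 in sgClu libraries, while mitochondrial proteins lie between 0.27 and 0.51.

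Stress response genes included members with clear separation. Ddit3, which encodes CHOP, a factor of the unfolded protein response, measured 44.2, 55.6, 62.4 and 55.3 FPKM in sgClu and 142, 105 and 149 FPKM in sgCtrl libraries. All sgClu values were below the lowest control (-1.26, SE 0.18, limma adjusted p = 0.00279). In its list of integrated stress and unfolded protein response genes, 5 of 6 were lower, with a median of -0.80. Trib3, a pseudokinase gene, was at -1.31 at low levels (means of 0.593 and 2.98 FPKM), and Nupr1, a stress-induced chromatin protein gene, at -0.77. The 3 heat shock genes in the table, of 20 listed, were lower at low levels. Their sum was 1.46 to 2.74 FPKM in sgClu and 5.65 to 6.26 FPKM in sgCtrl libraries. The groups of Zfand2a (-0.57) overlapped, and its call was lost without any library but sgClu replicate 4. Hspa1a and Hspa1b, at -0.95 and -1.17, have 60.3% and 62.3% of their 50-base words in common with transcripts of other genes and cannot be read separately. Of the p53 targets and cell cycle inhibitors, 4 of 8 were lower, a share near the 50.1% over the table, with a median of -0.71. Cdkn1a, which encodes the cyclin-dependent kinase inhibitor p21, measured 46.9, 59.9, 58.3 and 48.0 FPKM in sgClu and 154, 116 and 102 FPKM in sgCtrl libraries. The groups did not overlap (-1.19, SE 0.18, limma adjusted p = 0.00302). In the same list Rbm38, which encodes an RNA-binding protein, was higher, at 8.12, 9.06, 7.65 and 8.28 FPKM against 3.80, 3.38 and 4.12 FPKM. Its libraries were tightly grouped on both sides (0.96, SE 0.12, limma adjusted p = 0.00219). Among BCL2 family and caspase pathway genes 4 of 5 were lower, with both the survival gene Mcl1 (-0.70) and the pro-apoptotic gene Bcl2l11 (-0.80).

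Of 12 genes of cytokines, chemokines and growth factors, 10 were lower and Il12a was higher, with a median of -1.06. Vegfa, an angiogenic growth factor gene, was at 3.07, 2.93, 3.05 and 2.63 FPKM in sgClu and 10.6, 6.95 and 7.71 FPKM in sgCtrl libraries. Its sgClu libraries were nearly equal and all below the controls (-1.25, SE 0.16, limma adjusted p = 0.00219). Cxcl2, a neutrophil-attracting chemokine gene, was at -1.06, and Gdf15, a stress-induced growth factor gene, at -1.29. The groups of the chemokine gene Ccl5 overlapped (-1.49, SE 0.49), and with sgCtrl replicate 3 left out its change of -1.18 missed the limits. Il12a, a subunit of interleukin 12, measured 49.4 to 59.6 FPKM in sgClu and 26.3, 53 and 31.9 FPKM in sgCtrl libraries, and its call was lost without sgClu replicate 1 or 3 or sgCtrl replicate 1 or 3, with changes of 0.39 to 0.88 over all libraries left out in turn. Of 8 genes of cytokine and innate immune receptors, 7 were lower, and Plaur changed most (-2.17). Of 10 NF-kB factors and regulators, 9 were lower, with a median of -0.72. Tnfaip3, which encodes a deubiquitinase that restrains NF-kB, measured 5.03, 4.50, 6.69 and 6.33 FPKM in sgClu and 18.4, 10.3 and 20.1 FPKM in sgCtrl libraries. The lowest control was sgCtrl replicate 2, still above every sgClu library (-1.34, SE 0.24, limma adjusted p = 0.00474). Cd69, an activation antigen gene outside the lists named after its values were seen, measured 123, 119.8, 182 and 125 FPKM against 332, 292 and 235 FPKM, a log2 fold change of -1.06 (SE 0.19).

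Hypoxia and circadian clock genes shared Bhlhe40, a transcriptional repressor gene. It measured 1.55, 1.77, 1.91 and 2.14 FPKM in sgClu and 12.8, 4.65 and 10.1 FPKM in sgCtrl libraries. The control libraries spread widely but stayed above sgClu (-1.75, SE 0.28, limma adjusted p = 0.00378), and an annotated transcript, 0610040F04Rik, overlaps its exons. All 3 clock genes in the table were lower, with Per1 at -1.39 and Ciart at -1.0, and 5 of 6 hypoxia genes were lower. Of 11 regulators of Notch, TGF-beta, BMP and Wnt signalling, 6 were lower and 1 was higher, with a median of -0.61. The share of lower genes was near the 50.1% over the table. Skil, which encodes a repressor of SMAD signalling, measured 1.06, 1.79, 2.74 and 1.13 FPKM in sgClu and 7.20, 4.14 and 9.41 FPKM in sgCtrl libraries. The groups did not overlap (-1.55, SE 0.29, limma adjusted p = 0.00573). Hes1, a Notch target gene, was at -0.98. The higher member was Tle5, a Groucho family corepressor gene, at 128, 159, 119 and 163 FPKM in sgClu and 108, 86.5 and 84.5 FPKM in sgCtrl libraries. The lowest sgClu library was above the highest control (0.61, SE 0.16, limma adjusted p = 0.017). Of 20 small GTPases and regulators, found by symbol, 14 were lower, with Rasgef1b, an exchange factor gene for Rap proteins, at -1.64, and Rab5c, an early endosome GTPase gene, was higher at 0.65. Dennd4a, which encodes an exchange factor for Rab proteins, was at 5.78 to 8.99 FPKM in sgClu and 20.8 to 22.4 FPKM in sgCtrl libraries (-1.49, SE 0.15).

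**Figure D3:**
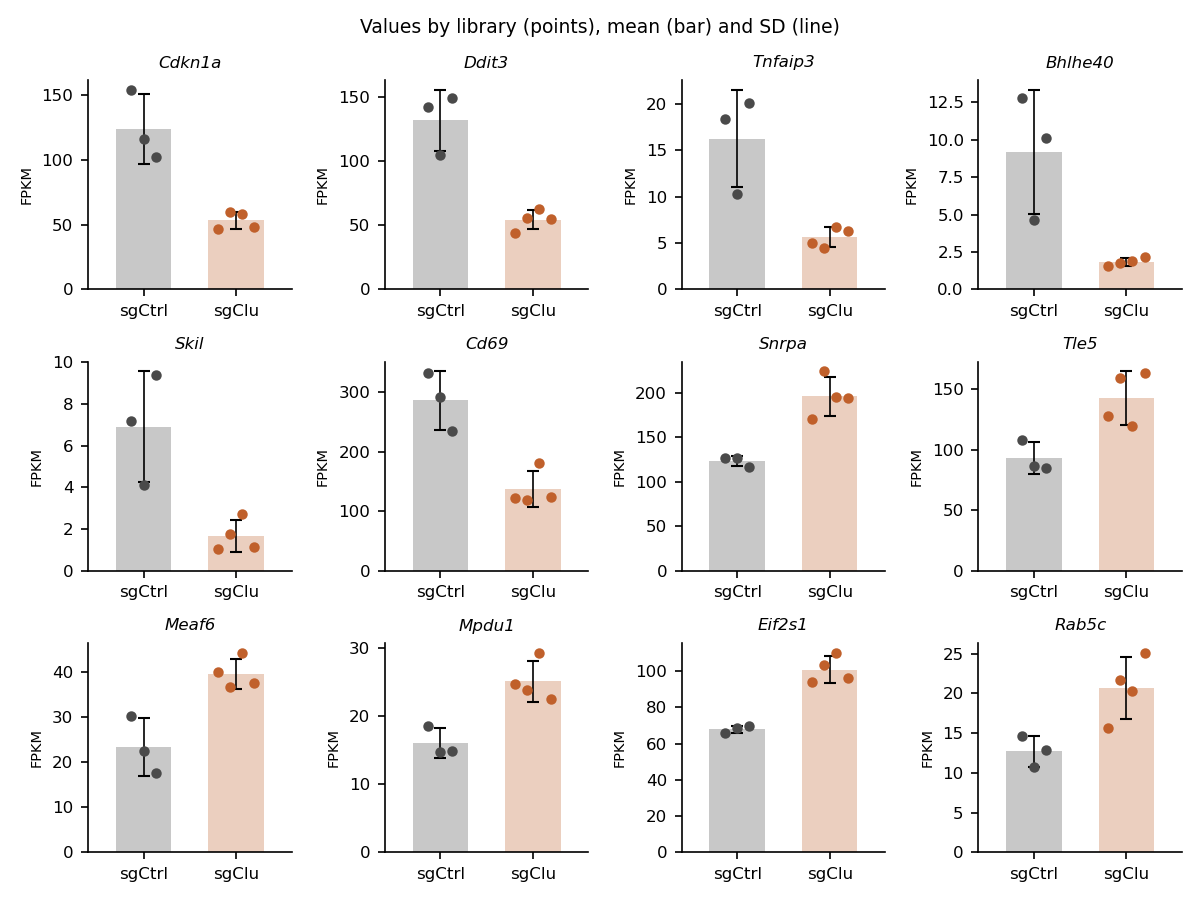
FPKM (y axis, from 0) in each sgCtrl and sgClu library (points), with the mean (bar) and SD (line), for 12 genes chosen after their values were seen. In all 12 the groups do not overlap, with 6 genes below (Cdkn1a, Ddit3, Tnfaip3, Bhlhe40, Skil, Cd69) and 6 above (Snrpa, Tle5, Meaf6, Mpdu1, Eif2s1, Rab5c).

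The mitochondrial protein list had 16 of 50 listed genes in the table, with 6 higher and 5 lower. Its median log2 fold change of 0.44 was above that of the table, and it stayed above it under all 3 scalings (0.95 to 0.97, against -0.12 to -0.087 for the table). Of the 6 higher members Fastkd3 changed most (0.74, groups apart), and Lipt2 was at 0.68 with overlapping groups. Both kept their calls with each library left out in turn. Higher members also included Ndufaf7, an assembly factor gene of complex I, with a mean of 41.7 ± 3.67 FPKM (SD) over the 4 sgClu libraries against 28.0 ± 3.12 FPKM (SD) over the 3 controls, and Pars2, a mitochondrial prolyl-tRNA synthetase gene, at 0.55. Ndufaf7 lost its call when sgCtrl replicate 3 was left out (0.48), and Pars2 when replicate 2 or 4 of sgClu or replicate 2 or 3 of sgCtrl was (0.45 to 0.66 over all libraries left out in turn). Lower members included Coq10b, which encodes a coenzyme Q binding protein, at 18 and 37.7 FPKM (-1.06, SE 0.21), and Slc25a25, a carrier of adenine nucleotides, at -1.0. Members of the list thus lay on both sides, and Coq10b stayed negative after median-of-ratios scaling (-0.45).

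Splicing factors also went in both directions, with 3 higher and 3 lower of 8, and their median moved from -0.028 to between 0.54 and 0.58 after scaling. Snrpa, which encodes a protein of the U1 snRNP, measured 171, 224, 195 and 194 FPKM in sgClu and 127, 127 and 117 FPKM in sgCtrl libraries. Every sgClu library was above the controls (0.65, SE 0.13, limma adjusted p = 0.00714). Sf3a2 changed most of the list (1.09), with the groups apart, and kept its call with each library left out in turn. Sf3b4, a U2 snRNP gene at 0.54, shares 49.3% of its 50-base words with other transcripts and lost its call without sgClu replicate 2 (0.45) or sgCtrl replicate 3 (0.43). The lower splicing genes were Sde2 (-0.68), Cwc25 (-0.62) and Khdc4 (-0.60), and Khdc4 came to -0.00071 after median-of-ratios scaling. Among 11 genes of RNA polymerase II elongation and 3-prime end processing 8 were lower, including Aff4 (-0.75, SE 0.11), a scaffold gene of the super elongation complex, and Ccnt1 (-0.66), a subunit of P-TEFb. Med18, a Mediator gene (0.70), and Rprd1a, which encodes a polymerase-binding protein (0.54), were higher. Rprd1a lost its call without sgClu replicate 2 or 3 or sgCtrl replicate 2, and its change was 0.46 at the lowest. The median of this list, -0.53, was that of the table within 0.0092.

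Chromatin regulators had 7 of 17 lower and 2 higher, with a median of -0.42 that turned to between 0.048 and 0.085 after scaling. Kdm6b, an H3K27 demethylase gene, was at -0.83 (SE 0.16). Chd1, a remodeler gene, was at -0.90, but sgCtrl replicate 3 (26.8 FPKM) stood above the other controls (9.22 and 8.99 FPKM), and without it the change was -0.41 and missed the limits. The call of Chd1 was also lost without sgClu replicate 1 (-0.81), 2 (-0.88) or 4 (-0.91). Meaf6, a subunit gene of histone acetyltransferase complexes, measured 39.9, 36.6, 44.2 and 37.5 FPKM in sgClu and 30.3, 22.4 and 17.5 FPKM in sgCtrl libraries. The groups did not overlap (0.76, SE 0.19, limma adjusted p = 0.0124). Mta1, of the NuRD complex, was at 0.61.

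Genes of protein synthesis were among the higher ones. Of 7 genes of ribosome biogenesis and translation, 3 were higher and 1 was lower, and their median of -0.34 turned to between 0.13 and 0.17 after scaling. Polr3gl, a subunit gene of RNA polymerase III, measured 10.1, 9.50, 9.73 and 9.20 FPKM in sgClu and 5.54, 4.56 and 4.70 FPKM in sgCtrl libraries. Both groups were narrow and apart (0.84, SE 0.12, limma adjusted p = 0.00279). Eif2s1, which encodes the alpha subunit of initiation factor eIF2, averaged 101 ± 7.27 FPKM (SD) over the sgClu libraries and 67.8 ± 1.97 FPKM (SD) over the controls, a log2 fold change of 0.56 (SE 0.12). Usp36, a nucleolar deubiquitinase gene, was lower at -0.86. Glycosylation and GPI anchor genes had 3 of 8 higher and 1 lower, with a median of 0.48. Mpdu1, needed for the use of dolichol-linked mannose, was at 24.7, 23.8, 29.2 and 22.4 FPKM in sgClu and 18.5, 14.7 and 14.9 FPKM in sgCtrl libraries. The groups were apart (0.62, SE 0.14, limma adjusted p = 0.0109). Alg12 (0.62, SE 0.24) overlapped between groups and lost its call without any library but sgClu replicate 2 and sgCtrl replicate 3, with changes from 0.40 to 0.89. In DNA replication and repair, 2 of 8 genes were higher, Ogg1 (0.69), which encodes the 8-oxoguanine glycosylase, and Rad1 (0.55), a checkpoint clamp gene, and Terf2, a telomere-binding protein gene, was lower (-0.64). Terf2 lost its call without replicate 3 or 4 of sgClu or 1 or 3 of sgCtrl. Without sgCtrl replicate 2 Rad1 was at 0.46 and not past the limits. Both redox enzymes in the table were higher, Msrb1 (1.28) and the glutathione transferase gene Gstt1 (0.57). Msrb1 kept its call with each library left out in turn, and Gstt1 lost it without sgClu replicate 3 or 4.

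Markers of other blood cell types were few and uneven. Of 38 neutrophil and monocyte genes 6 were in the table, and 5 were lower. The summed level of the 6 was 161 to 284 FPKM in sgClu and 529, 606 and 391 FPKM in sgCtrl libraries. The groups did not overlap in 2 of the 6, Cebpb and Ly6c2. Cebpb, a transcription factor gene, measured 34.6, 52.5, 40.6 and 59.5 FPKM in sgClu and 102, 90.0 and 63.6 FPKM in sgCtrl libraries (-0.86, SE 0.23, limma adjusted p = 0.0173). Ly6c2 was at -1.06. Both kept their calls with each library left out in turn, and were at -0.23 and -0.43 after median-of-ratios scaling. S100a8, a calprotectin subunit gene of neutrophils, measured 14.7, 50.7, 6.33 and 14.0 FPKM in sgClu and 159, 162 and 14.2 FPKM in sgCtrl libraries. The third control lay within the sgClu range, and the log2 fold change of -2.09 (SE 0.93) was not past the limits. The third control was also the lowest in the partner gene S100a9, where the controls were at 18.1, 13.3 and 1.87 FPKM and the sgClu libraries at 0.672 to 2.09 FPKM. S100a9 was past the limits (-1.98), and was at -2.82 without that control. The mast cell protease genes Tpsb2 and Mcpt4 were listed at 0 in all 4 sgClu libraries and in sgCtrl replicate 2. In sgCtrl replicates 1 and 3, Tpsb2 was at 2.55 and 34.7 FPKM and Mcpt4 at 0.317 and 7.77 FPKM. Tpsb2 was past the limits (-2.33, SE 1.0), but without sgCtrl replicate 3 its change was -0.91 and not past them, and the call was also lost without sgCtrl replicate 1 or any single sgClu library. The control lowest in S100a8 and S100a9 was thus the one highest in both mast cell genes. In bulk RNA, fewer cells of a type and less RNA per cell cannot be told apart, and the part of such cells in other differences was not tested.

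Of 32 lymphoid genes 4 were in the table, all at group means under 4 FPKM, and 3 were lower, with the T cell costimulatory receptor gene Cd28 at -1.20 (means of 0.802 and 3.16 FPKM). Of 19 megakaryocyte and platelet genes 4 were in the table and 3 were lower, with the cyclooxygenase gene Ptgs1 at -0.97 and Plek, a platelet signalling protein gene, at -0.90. None of 20 listed erythroid genes was among the 583.

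The labelled cell type could be checked only in part, since 4 of 30 listed HSC identity genes were in the table and defining markers such as Slamf1, Hlf and Mecom were not analysed here. Myct1 was at 36.5, 30.8, 35.4 and 34.0 FPKM in sgClu and 55.9, 51.3 and 47.4 FPKM in sgCtrl libraries. It was lower in every sgClu library (-0.58, SE 0.12, limma adjusted p = 0.00842), but came to 0.039 after median-of-ratios scaling. Procr, the endothelial protein C receptor gene used as an HSC marker, measured 4.95, 8.0, 11.4 and 11.7 FPKM in sgClu and 22.5, 14.5 and 10.8 FPKM in sgCtrl libraries. Its groups overlapped, and its call (-0.76, SE 0.32, limma adjusted p = 0.0585) was lost without sgClu replicate 1 (-0.53) or 2 (-0.73) or sgCtrl replicate 1 (-0.49) or 2 (-0.79). Nkx2-3, a homeobox gene, was lower at -0.76, and Fgd5 was not past the limits, at means of 0.280 and 1.16 FPKM.

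Most other lists stayed closer to the table or were small. The list of MAPK phosphatases, kinases and Gadd45 genes was small, but all 7 of its genes in the table were lower, against 50.1% of all genes. The groups did not overlap in 6 of the 7. Their median was -0.71, and between -0.25 and -0.22 after the 3 scalings. Gadd45b changed most (-1.11), and the phosphatase gene Dusp5 was at -0.86. Of 8 interferon response genes 3 were lower, among them the transcription factor gene Irf1 (-0.67), and Apobec3, a cytidine deaminase gene, was higher at 0.52. Apobec3 lost its call without sgClu replicate 2 (0.42) or sgCtrl replicate 2 (0.50) or 3 (0.44). Autophagy genes had 5 of 9 lower and 2 higher, with a median of -0.51, and of 4 centrosome, cilium and mitosis genes 3 were lower (median -0.55). By symbol, ubiquitin ligases, conjugating enzymes and proteases had 8 of 20 lower and 2 higher, with a median of -0.46. Zinc finger family genes had 5 of 22 lower and 6 higher, with a median of -0.42 that turned to between 0.011 and 0.045 after scaling. Solute carriers had 2 of 7 lower, with a median of -0.34 that was positive under 2 of the 3 scalings. Of 3 histone genes 2 were higher and H1f2, a linker histone gene at -0.60, was lower, although it was at 0.019 after median-of-ratios scaling and lost its call without sgClu replicate 1 (-0.45) or sgCtrl replicate 1 (-0.47). Predicted, RIKEN and small noncoding genes had 39 of 75 lower and 14 higher, with a median of -0.51.

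Replicates spread to a similar extent in both groups. The median coefficient of variation was 24.1% in sgClu and 21.5% in sgCtrl over the genes with values above 0, and for the 90 higher genes it was 20.3% and 19.1%. Across the lower genes sgClu replicate 3 was the highest of its group in 96 of 292, and sgCtrl replicate 1 was the highest of its group in 134. At group means of 10 FPKM or more, the narrowest sgClu groups were those of the tRNA deaminase gene Adat2 (3.78%), Egr1 (4.22%), Khdc4 (4.53%), the endocytic adaptor gene Reps1 (4.63%) and the pseudogene Nutf2-ps1 (4.97%). In sgCtrl they were Sp3os (0.659%), Ctla2a (1.0%), Suco (2.02%), the ubiquitin ligase gene Arih2 (2.36%) and the small RNA gene Gm25360 (2.42%). The widest sgClu group was that of Arl5c, a small GTPase gene, at 48.9 and 59.5 FPKM in replicates 1 and 4 and 0.783 and 0 FPKM in replicates 2 and 3. All 3 controls were under 1 FPKM, so that the log2 fold change of 2.80 (SE 1.46) came from 2 of the 4 sgClu libraries and was not past the limits. S100a8 (92.8%), Osm (41.8%), Fam110a (36.2%) and Gm25099 (32.2%) followed. In sgCtrl the widest were Tpsb2 (156%), S100a8 (75.6%), S100a9 (75.2%), Chd1 (68.2%) and the tRNA methylation gene Wdr4 (55.5%). With each library left out in turn, 179 of the 292 lower and 44 of the 90 higher genes stayed past the limits every time.

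**Figure D4:**
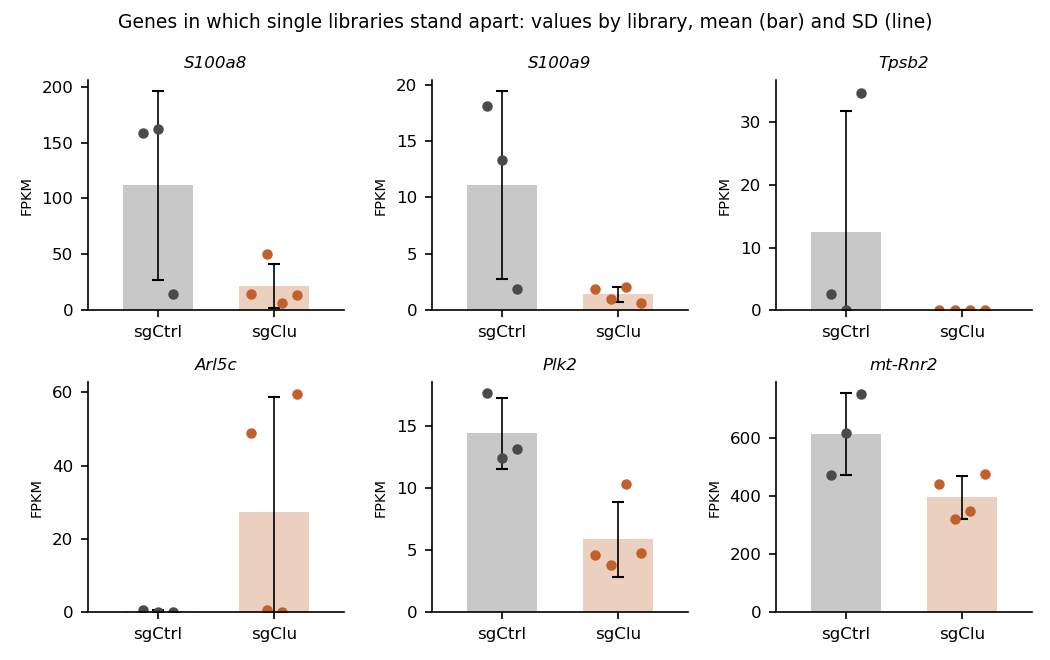
FPKM (y axis, from 0) in each sgCtrl and sgClu library (points), with the mean (bar) and SD (line), for 6 genes in which single libraries stand apart. The third sgCtrl library is low in S100a8 and S100a9 and high in Tpsb2, and Arl5c is above 40 FPKM in 2 of 4 sgClu libraries.

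Promoters of lower genes were searched for short motifs. RefSeq windows (GRCm38.p6) of 250 bases before and 50 after the start were found for 404 of the 583 genes. An NF-kB motif, read as GGAATTTCC or GGACTTTCC on either strand, was present in 9 of 203 lower genes (4.43%), in 1 of 141 genes not past the limits and in 0.659% of all 27025 windows. It was in no window of the 60 higher genes. The AP-1 motif TGACTCA was in 18 lower genes (8.87%), 1 higher gene (1.67%) and 5.17% of all windows. The CRE motif TGACGTCA was in 10 lower genes (4.93%), 2 higher genes (3.33%) and 1.88% of all windows. The CArG box was in 3.45% of lower genes, 1.67% of higher genes and 1.57% of all windows, and the TATA motif TATAAA in 13.8%, 11.7% and 14.2%. Both strands were searched for each motif. A match describes letters in a window and not a bound site. The stretches around the NF-kB motif are shown for the lower genes whose motif lies before the start, to let the matches be compared. The motif is in capitals, with up to 20 bases on each side, on the strand of the gene.
Cxcl10: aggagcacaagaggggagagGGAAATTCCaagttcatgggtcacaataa
Tnfaip3: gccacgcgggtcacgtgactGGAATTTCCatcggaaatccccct
Cxcl2: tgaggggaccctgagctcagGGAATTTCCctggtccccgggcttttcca
Neurl3: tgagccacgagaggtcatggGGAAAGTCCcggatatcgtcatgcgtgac
Ccrl2: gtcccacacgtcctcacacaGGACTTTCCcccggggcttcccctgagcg
Nfkbia distal: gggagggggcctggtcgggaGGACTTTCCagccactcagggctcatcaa
Nfkbia proximal: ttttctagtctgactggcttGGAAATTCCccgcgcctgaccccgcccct
Ier3: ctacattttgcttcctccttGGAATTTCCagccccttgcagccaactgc
These lie at chr5:92349019-92349067 for Cxcl10 (minus strand), chr10:19015411-19015454 for Tnfaip3 (minus), chr5:90903783-90903831 for Cxcl2 (plus), chr1:36273507-36273555 for Neurl3 (minus) and chr9:111057558-111057606 for Ccrl2 (minus). The Nfkbia stretches lie at chr12:55492797-55492845 and chr12:55492648-55492696 (minus), and that of Ier3 at chr17:35821554-35821602 (plus). The log2 fold changes of these genes ranged from -2.05 for Cxcl10 to -0.56 for Ier3, whose call was lost without replicate 1 of either group and whose change turned to between 0.029 and 0.072 under the 3 scalings. Nfkbia, which encodes the NF-kB inhibitor IkB alpha, was at -0.72, and Ccrl2, an atypical chemokine receptor gene, at -0.95.

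Of the 583 genes, 53 (9.09%) also stood in a table of 1043 genes that the study selected as higher in transplanted old than young HSCs, which is 5.08% of that table. The libraries of the tables are different and were normalized apart. Of these 53 genes, 31 were lower in sgClu, among them Cdkn1a, Hes1 and Nupr1, and 10 were higher, among them Gstt1 and the vesicle transport gene Tfg (0.67, SE 0.15). Over all 583 genes 50.1% were lower and 15.4% higher, shares near those of the 53, so these counts do not set the 53 apart. The direction of the 53 genes with age was fixed by that selection, so nothing is read from it, and the overlap was not tested.

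**Figure D5:**
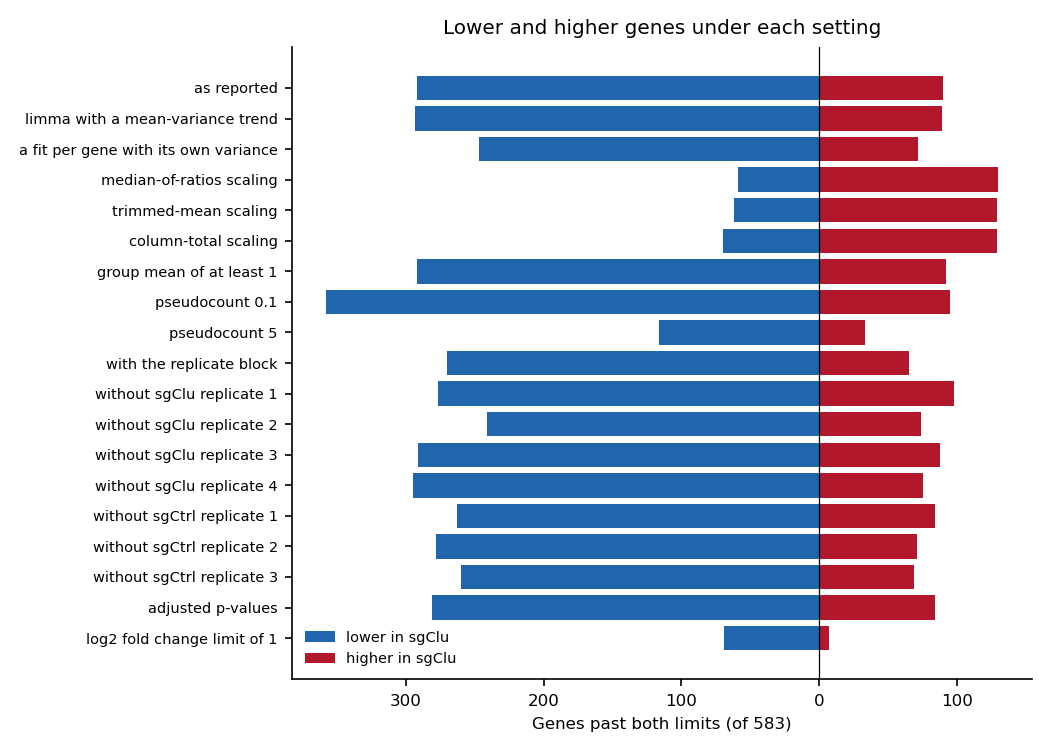
Number of genes lower (left) and higher (right) in sgClu under each setting (x axis, genes past both limits of 583). As reported the counts are 292 and 90, and scaling over the listed genes turns the balance, with 59 to 70 lower and 129 to 130 higher.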

How the data were processed

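Values were used from 7 libraries, 4 sgClu and 3 sgCtrl, grouped by their labels. The authors prepared SMART-Seq libraries, and used TrimGalore for trimming, Hisat2 for alignment (mm10), FeatureCounts for counting and DESeq2 for calling genes. The deposited values carry no unit in the headers or labels and were taken as FPKM, the expression unit the study names, and the annotation and the step from counts to FPKM are not given in the sources used here. Ratios of values under 1 FPKM between libraries showed no step left by whole reads (at most 5.56% of genes within a window of 1%), so depth is unknown and no interval needing it is given. Here limma (version 3.58.1, R 4.3.3) was fitted to log2(FPKM + 1) over the 583 genes without a filter, with Benjamini-Hochberg adjustment over all 583. Since these genes were already selected as changed, the adjusted p-values control no error rate over all genes. The fit was tested on simulated data with as many rises as falls and no selection by change. It recovered 85 of 200 log2 changes of 0.5, 192 of 200 changes of 1 and 200 of 200 changes of 2. In the same runs it called 8, 13 and 6 of 383 unchanged genes. Because a call needs an estimated change above 0.5, many true changes of 0.5 are missed by construction. The selection behind the real table was not simulated. Lists were written from general knowledge. Named genes are, in each direction, the 10 with the largest change among genes past the limits, without overlap and reaching 10 FPKM in the mean of either group, up to 6 called members a list, the 5 highest in level, the 5 widest and narrowest groups at a mean of at least 10 FPKM, and Clu, Cebpb, Mfn2 and Pdk3, of which Cebpb is in the table. Not every gene named by these rules is described above. Among the leading ones left out, Ly6k was at -2.17, Rrad at -1.73, Ly6a2 at -1.40 and Ass1 at 0.91. Any gene in the text outside these rules was picked with its values in view. The members, lists and tests were chosen with earlier results of these data known. Positions come from GENCODE M21 (GRCm38), which may differ from the annotation of the authors and matched 571 of 583 symbols. The share of 50-base words found in other genes' transcripts marks values that may be split, with 10% as the limit (48 genes), and exons of 178 genes overlap another gene, without regard to strand. Alternatives were another variance model, 3 scalings, a filter, other pseudocounts and limits, a replicate block and leaving out each library.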

Additional observations from a re-analysis of the deposited data

Results flagged for a closer look

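In the sgClu group of 4, a value was singled out where its gap to the nearest other library took up more of the range of the group than Dixon's 95% value for 4 samples allows. This was asked of 180 named genes, and chance alone flags about 1 in 20. Groups of 3 were not examined this way. For 10 genes a library stood apart, which is close to the number that chance alone would flag, so nothing is read from that number. In sgClu replicate 3, Ctla2a was high at 2533 FPKM (others 1617 to 1745), Plk2 at 10.3 FPKM (others 3.80 to 4.74) and the noncoding gene Gm26532 at 15.5 FPKM (others 11.4 to 11.6), while Arih2 was low at 4.34 FPKM (others 6.33 to 6.61), Nfkbiz at 6.77 FPKM (others 9.09 to 9.25) and Rsad2 at 0.695 FPKM (others 1.38 to 1.48). In sgClu replicate 1, Btg2 was low at 22.6 FPKM (others 31.4 to 32.9) and Dusp1 at 158 FPKM (others 204 to 210.2). In sgClu replicate 2, Nupr1 was low at 41.5 FPKM (others 58.6 to 59.1). In sgClu replicate 4, Arl5b was high at 2.27 FPKM (others 0.872 to 0.898). Each of these genes was lower in sgClu and past the limits.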

How the results depend on the processing

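The direction of the median and both counts held under leaving out each library, with 241 to 295 genes lower, 69 to 98 higher and a median log2 fold change of -0.54 to -0.49. Scaling over the listed genes lowered the count of lower genes from 292 to 59 (median of ratios), 62 (trimmed mean) and 70 (column totals). The medians were then -0.087, -0.10 and -0.12, and lower genes made up 31.2%, 32.5% and 35.2% of those called. Each scaling brings the libraries to a common level over these same selected genes, so it cannot tell which baseline applies. A pseudocount of 5 left 116 lower and 33 higher at a median of -0.24, and a log2 fold change limit of 1 left 69 and 7, as a larger offset and a stricter limit remove small changes by construction. Of the 292 lower genes 262 stayed negative under all 3 scalings, and the others turned under at least 1. Of 181 named genes, 88 kept their sign but lost their call after median-of-ratios scaling, 89 after trimmed-mean and 87 after column-total scaling. Sign and call status were both kept in 83, 85 and 89. Among those that lost it were Jun (-0.072), Mcl1 (-0.080) and Nfkbia (-0.087 after median-of-ratios scaling). Among genes named by the rule and past the limits, signs turned after median-of-ratios scaling for Ccnl1 (0.0046), H1f2 (0.019), Myct1 (0.039), Reps1 (0.044), Siah2 (0.015), Sqstm1 (0.059) and mt-Rnr2 (0.0075), after trimmed-mean scaling for H1f2 (0.0026), Myct1 (0.023), Reps1 (0.028) and Sqstm1 (0.043), and after column-total scaling for Reps1 (0.0026) and Sqstm1 (0.017). Among the other genes in the text, Ier3 (0.072, 0.056 and 0.029) and Btg1 (0.12, 0.10 and 0.077) turned under all 3, and Bach1 (0.0094 and 0.0007) under the first 2. The labels do not say whether replicate numbers pair the libraries. Deviations of same-numbered libraries from their group means correlated at -0.103, 0.0731 and 0.0578. Pairs with unlike numbers ranged from -0.205 to 0.177, so these values cannot settle it. In a fit with a replicate block, where sgClu replicate 4 has no partner, 270 genes were lower and 65 higher at a median of -0.54.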
